A study of Mus musculus with 2 samples.

Results

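The genes described here are 37 genes that mark endothelial cells, the cells that line blood and lymph vessels, measured in the mouse adrenal gland by total RNA-seq. They were picked by gene symbol from 55418 symbols in the deposited tables, by a rule that names genes and sets no threshold on their values, and all 37 were found. The choice was made with earlier results of these data known. By role, 25 mark endothelium of most vessels (pan-endothelial: 6 of junctions and adhesion, 9 receptors and signalling proteins, 2 secreted proteins and 8 transcription factors), 6 mark fenestrated or capillary endothelium, 4 mark sinusoidal endothelium and 2 mark lymphatic endothelium. The study has 1 group of 2 libraries, both made from adrenal glands that came from B6CASTF1/J females aged 14 days. These are first-generation hybrids of C57BL/6J and CAST/EiJ with no treatment named in the labels. Each library started from 300 ng of RNA and received ERCC spike-in RNA, a set of synthetic transcripts of known amount. One label of replicate 1 names a pool of females and that of replicate 2 a single female, while a shared library description names the pool for both. Whether the libraries come from separate animals is therefore not settled, and any difference between them may be technical.

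Endothelial cells hold together through cadherin and claudin junctions, and read flow and growth factors through surface receptors. ETS-family and SOX-family transcription factors keep up their identity. In endocrine glands such as the adrenal, capillaries are fenestrated: pores closed by a diaphragm of the Plvap protein let hormones pass into the blood. The capillaries of the adrenal cortex are often described as sinusoids, and the best known sinusoids, those of the liver, carry the scavenger receptors Stab1 and Stab2 and the lectin Clec4g.

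With 1 group there is no comparison of conditions, so the results are levels, in TPM (transcript abundance as the tables give it, a level per length, relative to all entries of the table), and differences between the libraries. A difference is the log2 ratio of replicate 2 over replicate 1 after scaling the counts by TMM, which assumes that most genes do not differ, with a prior count of 0.5 added. A fold is the ratio of the scaled counts without that prior. Its interval (95%, exact binomial) covers counting error only. A gene was called higher or lower when an exact binomial test of its counts, adjusted by Benjamini-Hochberg over the 16137 genes whose count averaged 20 or more, fell under 0.05. Such a call compares these libraries and no conditions. It was also asked whether the difference was past 2-fold.

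The libraries held 37586172 and 33844950 expected counts, of which 47891 and 41822 (0.127% and 0.124%) belonged to the 37 genes. A gene with no counts could still hold up to 3 at these depths, a share of 7.98e-06% in replicate 1 and 8.86e-06% in replicate 2. The tissue label was matched by genes of both parts of the gland: 8 cortex markers summed to 6832 and 2885 TPM, and 8 markers of chromaffin cells, the catecholamine cells of the medulla, to 1598 and 739 TPM. The libraries also differed in markers of other organs. The 12 hepatocyte markers summed to 342 TPM in replicate 1 and 20000.1 TPM in replicate 2, the 8 skeletal muscle markers to 24.6 and 539.7 TPM, and the 10 thymocyte markers to 74.9 and 2.38 TPM. In bulk tissue, fewer cells of a type and less RNA per cell cannot be told apart.

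Endothelial RNA was present in both libraries at moderate levels. At least 1 TPM in both libraries was reached by 33 of the 37 genes and at least 10 TPM by 19. The median level was 11.3 TPM in replicate 1 and 11.2 TPM in replicate 2, and the summed level 570.4 and 506 TPM. Egfl7 was the highest in both libraries, at 57.7 and 46.9 TPM, and its mean of 52.3 TPM (SD 7.59, n = 2) stood at the 95.8th percentile of protein-coding genes. The next by mean were Cdh5 at 37.9 TPM, Gpihbp1 at 36.8, Plvap at 33.7 and Pecam1 at 31.9. The lowest were Esm1 at 1.69 TPM, Tal1 at 1.15 and Mmrn1 at 0.415. The order is coarse: of 36 neighbouring pairs in it, only 8 had library values that did not overlap, among them Egfl7 over Cdh5 and Tal1 over Mmrn1.

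**Figure D1:**
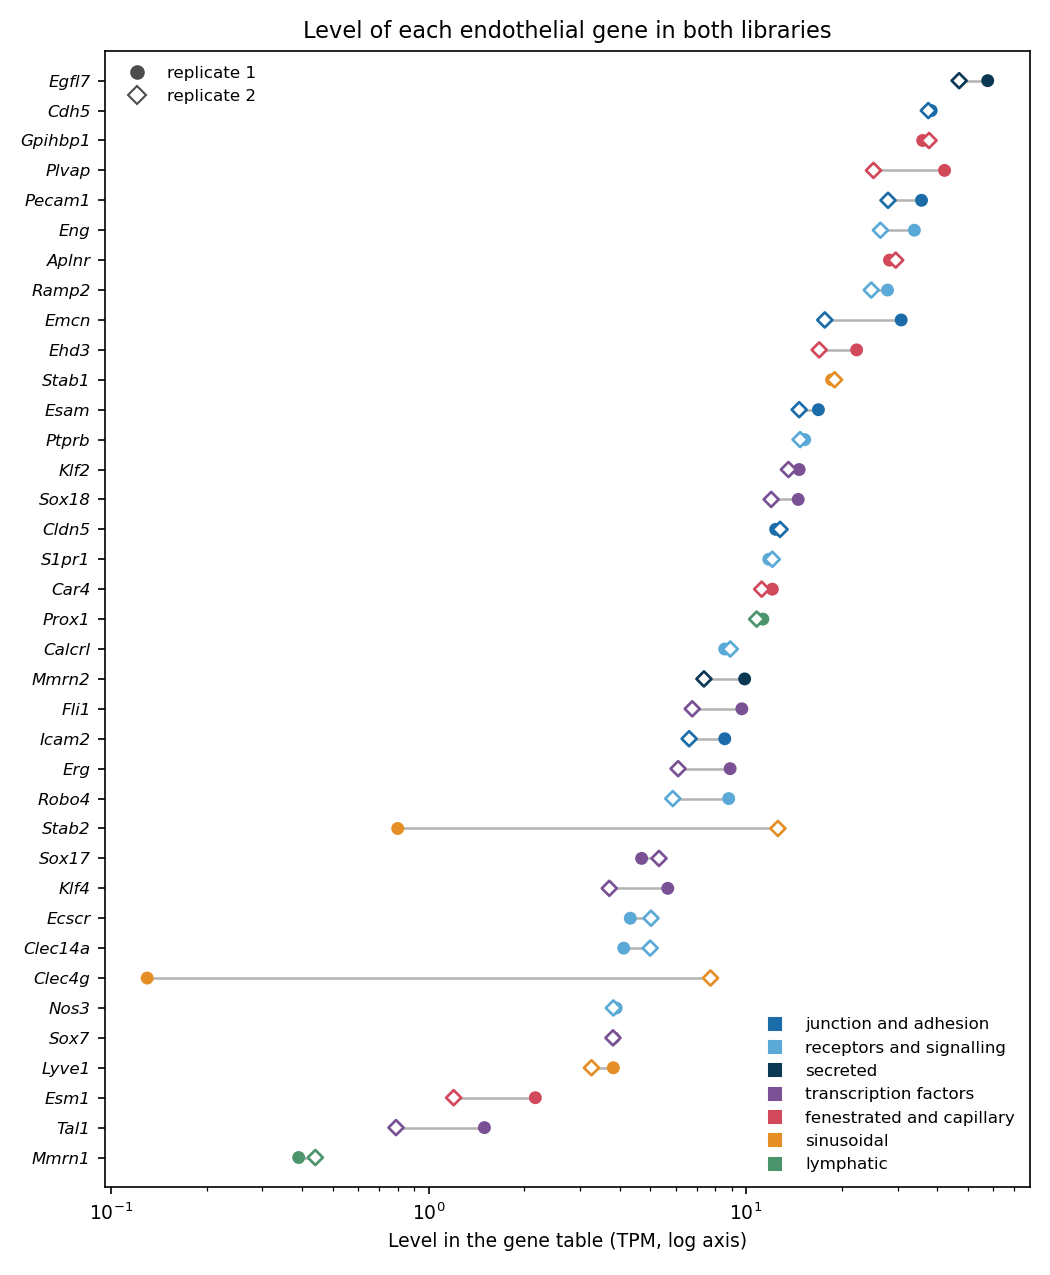
Level of each of the 37 genes in the gene table, in TPM on a log axis, ordered by the mean of both libraries. Filled circles are replicate 1, open diamonds replicate 2, and colours give the role. Most genes have both symbols close together, while Stab2 (0.800 and 12.6 TPM) and Clec4g (0.130 and 7.73 TPM) lie far apart.

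All 37 genes had enough counts to be tested, Clec4g through replicate 2 alone. Of them 24 were higher in replicate 2, 5 were lower and 8 were not called. Over all 16137 genes tested, 28.5% were higher and 24.6% lower. The calls were mostly small: 35 of the 37 genes lay within 2-fold, between -0.51 and 0.70. The exceptions, Stab2 and Clec4g, were both higher in replicate 2, and none was past 2-fold lower. Past 2-fold, 8.38% of all genes were higher and 2.55% lower. The median difference was 0.31 over the 37 genes and -0.00 over all genes tested.

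The zero point of these differences depends on the scaling. With counts scaled to the spike-ins the median gene moved by -0.28, and with total counts by -0.34. Under spike-in scaling 10 of the 37 genes were called higher and 11 lower, beside 15.6% and 52.8% of all genes. Under total counts 4 were higher and 13 lower, beside 14.0% and 58.3%. Cdh5, Clec14a and Stab2 were called higher under every scaling, prior count and counting table tried, and Plvap, Emcn, Fli1 and Tal1 lower. Clec4g was also called higher each time. It passed the count minimum through replicate 2 alone, so its call is a description. On log2(TPM + 0.1), which is not TMM-scaled, Cdh5 stood at -0.03. For the other genes, the order among the 37 is better fixed than the sign, so some differences below are also given relative to the pan-endothelial median of 0.31. That median itself moves with the scaling, but the distance of a gene from it does not.

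**Figure D2:**
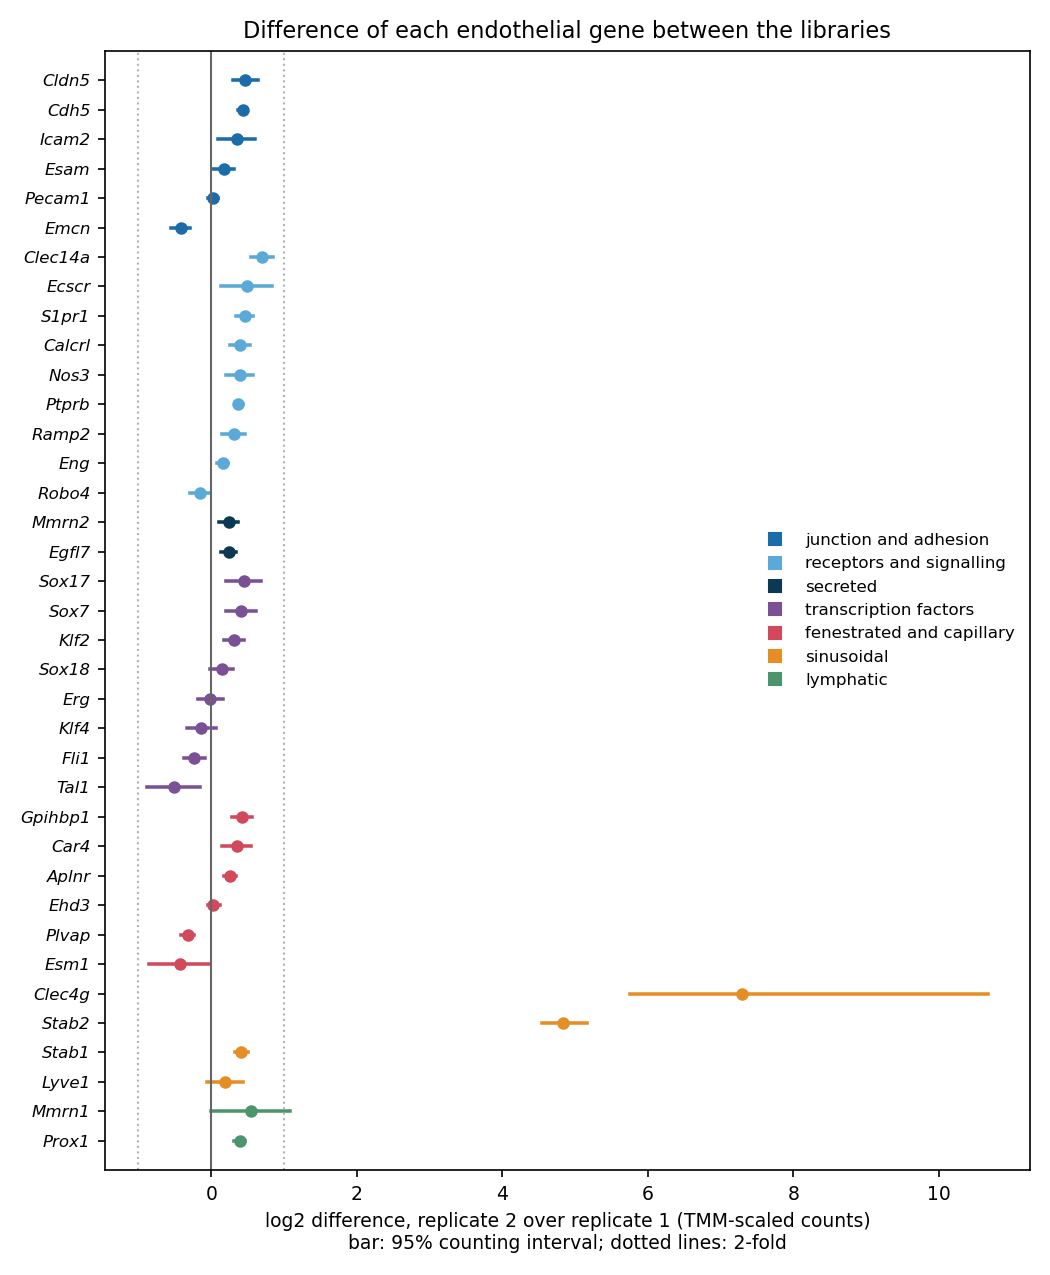
Difference between the libraries for each gene, as log2 of replicate 2 over replicate 1 from TMM-scaled counts, grouped by role. Points are the estimates, bars 95% counting intervals and dotted lines 2-fold. All genes lie between the dotted lines except Stab2 at 4.84 and Clec4g at 7.30.

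The junction and adhesion genes summed to 143 TPM in replicate 1 and 117 TPM in replicate 2. Of the 6, 4 were called higher in replicate 2 and 1 lower, beside 28.5% and 24.6% of all genes tested, and 1 was not called. Their median was 0.26. Cdh5, the cadherin of endothelial adherens junctions (chr8:104101625-104144511, plus strand, mm10), had 4881 and 4676 counts and 38.3 and 37.5 TPM. Its difference was 0.43, a 1.35-fold (1.29 to 1.40) higher scaled count in replicate 2. Cldn5, the main claudin of endothelial tight junctions, stood at 12.4 and 12.8 TPM and differed by 0.47. Icam2, an adhesion molecule for leukocytes, had 8.57 and 6.62 TPM, and its scaled counts differed by 0.35. Esam, an adhesion molecule of tight junctions, had 16.9 and 14.7 TPM and a difference of 0.17, which was negative under spike-in (-0.11) and total-count scaling (-0.17). Under total counts Esam was called lower.

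Pecam1, the platelet and endothelial adhesion molecule used most often to stain vessels, had 3663 and 2664 counts and 35.7 and 28.0 TPM. Its difference of 0.03 was not beyond counting noise. Pecam1 was called lower under spike-in scaling, at -0.24, and under total counts, at -0.31. Emcn, a sialomucin of capillaries and veins, was the junction and adhesion gene called lower with TMM. It had 1398 and 745 counts and 30.8 and 17.7 TPM, and was 1.34-fold (1.22 to 1.46) lower in replicate 2. Relative to the pan-endothelial median it stood at -0.72. In the gene table its level was 0.803 of that of Cdh5 in replicate 1 and 0.472 in replicate 2. In the second transcript table the same ratio was 0.325 and 0.326, since that table gave Cdh5 121 and 75.2 TPM. The shift of Emcn against Cdh5 in TPM therefore rested on the gene table, while its lower count did not.

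The receptors and signalling proteins were nearly all called higher in replicate 2 with TMM. The same held with DESeq2 scaling and with the second transcript table, but not with spike-in or total-count scaling. Of 9, 8 were called higher in replicate 2 and 1 lower, beside 28.5% and 24.6% of all genes tested. Their median was 0.39, and all lay between -0.15 and 0.70. Under spike-in scaling Clec14a, Ptprb and S1pr1 were called higher, and Eng and Robo4 lower. Under total counts only Clec14a was called higher, with Eng and Robo4 lower. In TPM, 4 of the 9 were higher in replicate 2. Their summed level was 119 and 107 TPM. Clec14a, a C-type lectin of angiogenic vessels, had 638 and 736 counts and 4.12 and 4.99 TPM. It was the highest of the pan-endothelial genes by difference, at 0.70 or 1.62-fold (1.46 to 1.80), and stood 0.39 above their median. S1pr1, the sphingosine-1-phosphate receptor that steadies junctions, had 11.8 and 12.1 TPM and a difference of 0.46. Ecscr, a surface protein of endothelial cells, had the fewest counts of the group, 141 in each library, and a difference of 0.49 with a wide interval of the fold (1.10 to 1.79).

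Ptprb, the phosphatase that acts on the Tek receptor and on Cdh5, had 5185 and 4781 counts, the most of the 37 genes in each library. Its level per length was 15.3 and 14.8 TPM and its difference 0.37. Nos3, the endothelial nitric oxide synthase, had 3.90 and 3.82 TPM and a difference of 0.39. Both therefore stood close to the pan-endothelial median. Eng, the co-receptor for TGF-beta family ligands, had 33.9 and 26.5 TPM and a difference of 0.16, which was -0.12 under spike-in scaling. Its call turned from higher to lower there and under total counts, at -0.18. Robo4, a guidance receptor of vessels, had 8.82 and 5.88 TPM and was 1.11-fold (1.01 to 1.22) lower in replicate 2. That was a small difference, and with the estimated counts of the second transcript table it was -0.10 and not called.

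Calcrl and Ramp2 form the adrenomedullin receptor, Calcrl as the receptor proper and Ramp2 as the accessory protein that sets its ligand. Calcrl had 8.57 and 8.92 TPM and Ramp2 27.9 and 24.8 TPM. Their differences were 0.39 and 0.31. The level of Ramp2 was 3.26 and 2.78 times that of Calcrl in the gene table and 9.76 and 6.92 times in the second transcript table. The order of the pair held in both tables, and the size of the ratio did not.

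The secreted proteins were both higher in replicate 2 by 0.24. Egfl7, a matrix protein released by endothelial cells whose gene also hosts the miR-126 precursors (chr2:26580014-26593120, plus strand), had 1594 and 1339 counts. Mmrn2, a matrix protein that binds Clec14a, had 9.90 and 7.37 TPM. Under spike-in scaling both differences were -0.04.

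The transcription factors had calls in both directions. Of 8, 3 were called higher in replicate 2 and 2 lower, beside 28.5% and 24.6% of all genes tested, and 3 were not called. Their median was 0.07. Among the SOX factors of vessel identity, Sox18 was the most abundant at 14.6 and 12.0 TPM, followed by Sox17 at 4.69 and 5.32 TPM and Sox7 at 3.83 and 3.81 TPM. Sox17 and Sox7 were called higher in replicate 2, by 0.45 and 0.41. Neither was called under spike-in scaling (0.17 and 0.14) or total counts (0.11 and 0.07). Sox18 differed by 0.15 and was not called. Under total counts it was called lower, at -0.19, and with the second transcript table higher, at 0.29. The level of Sox18 over Sox7 was 3.80 and 3.16.

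The Kruppel-like factors, both induced by flow, differed from each other. Klf2 had 14.7 and 13.6 TPM and was higher in replicate 2 by 0.31, which was -0.03 under total counts. Klf4 had 5.67 and 3.71 TPM, and its difference of -0.14 was not called, though at -0.41 under spike-in scaling it was. Klf2 stood at 2.59 times the level of Klf4 in replicate 1 and 3.66 times in replicate 2.

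Of the ETS factors and Tal1, Fli1 and Tal1 were lower in replicate 2 and Erg was not called. Erg, an ETS factor of endothelial identity, had 8.91 and 6.11 TPM and a difference of -0.01, or 0.07 with the counts of the second transcript table. Under spike-in scaling Erg was called lower, at -0.29. Fli1, its close relative, had 937 and 568 counts and 9.70 and 6.77 TPM and was 1.17-fold (1.06 to 1.31) lower in replicate 2. Tal1 (chr4:115056426-115071755, plus strand), a factor of blood and vessel progenitors that is also active in red cell precursors, had 190 and 95 counts and 1.50 and 0.790 TPM. It was 1.42-fold (1.11 to 1.84) lower in replicate 2, the lowest of the 37 genes by difference, at -0.81 against the pan-endothelial median. All 6 erythroid markers tested were lower too, with a median of -1.67 and summed levels of 5924 and 1793 TPM. Hbb-bs, an adult beta globin, differed by -1.34. Fli1 and Tal1 are active in blood cells as well, and the part of blood cells in their difference was not tested.

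The fenestrated and capillary genes summed to 143 and 122 TPM. Of 6, 3 were called higher in replicate 2 and 1 lower, beside 28.5% and 24.6% of all genes tested, and 2 were not called. Their median of 0.15 turned to -0.13 when scaled to the spike-ins and to -0.19 when scaled to total counts. That median lies in a gap, with Plvap, Esm1 and Ehd3 below it and Gpihbp1, Car4 and Aplnr above. Plvap, the protein of the fenestral diaphragm (chr8:71497765-71511752, minus strand), had 2757 and 1568 counts and 42.2 and 25.2 TPM. It was 1.25-fold (1.18 to 1.33) lower in replicate 2 and stood at -0.63 against the pan-endothelial median. It was second in level in replicate 1 and rank 7 in replicate 2. Esm1, a proteoglycan of tip cells and some capillaries, had 150 and 79 counts, and its difference of -0.43 was not called. It was called lower under spike-in scaling, at -0.71, and with the second transcript table, at -0.47. Ehd3, a membrane-trafficking protein of fenestrated glomerular capillaries, had 22.3 and 17.0 TPM and a difference of 0.03, not called. Ehd3 was called lower under spike-in scaling, at -0.24, and under total counts, at -0.30. With the second transcript table it was called higher, at 0.11.

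The remaining capillary genes were called higher in replicate 2. Gpihbp1, which carries lipoprotein lipase to the capillary lumen, had 36.0 and 37.7 TPM and a difference of 0.42. Car4, a carbonic anhydrase on the surface of capillaries, had 12.1 and 11.2 TPM and a difference of 0.35. Aplnr, the apelin receptor, had 28.3 and 29.6 TPM and a difference of 0.26, which was -0.02 under spike-in scaling. The level of Gpihbp1 over Plvap was thus 0.853 in replicate 1 and 1.50 in replicate 2, and 0.899 and 1.55 in the second transcript table. Plvap over Pecam1 went from 1.18 to 0.899, and from 1.04 to 0.810 in the second table.

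Markers of the tissues around such capillaries moved as well. All 8 cortex markers were lower in replicate 2, with a median of -0.87, 2 of them past 2-fold, and Star, the cholesterol carrier of steroid synthesis, differed by -0.94. Of 8 chromaffin markers 7 were lower, with a median of -0.71, and Th, the rate-limiting enzyme of catecholamine synthesis, differed by -0.99. All 8 adipocyte markers were higher, with a median of 0.64 and summed levels of 2629 and 2873 TPM, and Adipoq, an adipocyte hormone, differed by 0.69. The part of these cells in the capillary genes was not tested.

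The sinusoidal genes held the exceptions. Their summed level was 23.3 TPM in replicate 1 and 42.6 TPM in replicate 2. Of 4, 3 were called higher in replicate 2, beside 28.5% of all genes tested, and 1 was not called. Their median of 2.63 lies between a pair of small and a pair of large differences. Stab2, a hyaluronan and scavenger receptor of liver, spleen and lymph node sinusoids (chr10:86841198-87008025, minus strand), had 91 counts in replicate 1 and 1871 in replicate 2. Its level was 0.800 and 12.6 TPM, and its scaled count was 28.9-fold (23.4 to 36.1) higher in replicate 2. It went from rank 35 of the 37 genes to rank 16.

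Clec4g, a lectin of liver and lymph node sinusoids (chr8:3707064-3720651, minus strand), had 2 counts in replicate 1, fewer than the 3 that a count of 0 allows, and 279 in replicate 2. Its level was 0.130 and 7.73 TPM. The ratio of its scaled counts was 196-fold, with a counting interval from 53.8 to 1626. Its log2 difference of 7.30 is smaller than that ratio, because differences carry a prior count of 0.5 and folds do not. In replicate 1 both tables gave all of its TPM to a transcript that retains an intron (Clec4g-203). In replicate 2 the coding transcript Clec4g-202 took 93.2% in the first transcript table and all of it in the second. The coding form was thus listed at 0 in replicate 1. Clec4g stood at 0.163 of the level of Stab2 in replicate 1 and 0.612 in replicate 2.

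Stab1 and Lyve1 stayed with the other endothelial genes. Stab1, the paralogue of Stab2 that macrophages carry too (chr14:31139013-31168641, minus strand), had 2192 and 2079 counts and 18.6 and 19.0 TPM. Its difference was 0.41, or 0.11 above the pan-endothelial median. The level of Stab1 over Stab2 was therefore 23.2 in replicate 1 and 1.50 in replicate 2. Lyve1, a hyaluronan receptor of lymphatic and sinusoidal endothelium and of some macrophages, had 3.82 and 3.26 TPM and a difference of 0.19, which was not called.

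The genes of a further list, 11 markers of liver sinusoidal endothelium, were read to see whether Stab2 and Clec4g stood alone. Over all genes that passed the count minimum, 8.38% were past 2-fold higher and 2.55% lower. Of all 11, with no count minimum, 6 were past 2-fold higher, 5 within 2-fold and none past 2-fold lower, with a median of 1.43. Of the 6, Dnase1l3, Wnt2 and Clec1b had under 20 counts in replicate 1 and passed the minimum through replicate 2 alone, so their difference is a description. Dnase1l3, a secreted nuclease, had 17 and 554 counts and was 45.8-fold (28.3 to 79.2) higher. Fcgr2b, the inhibitory Fc receptor that clears immune complexes in the liver, had 77 and 532 counts and was 9.71-fold (7.63 to 12.5) higher. Wnt2, a ligand from central-vein endothelium, had 9 and 45 counts and was 7.02-fold higher.

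Gata4, the transcription factor that specifies liver sinusoidal endothelium, had 41 and 203 counts and was 6.96-fold higher. Clec1b, a platelet and Kupffer cell lectin, was 3.55-fold higher on 17 and 43 counts. Oit3 was 2.71-fold higher on 191 and 368 counts. The others lay within 2-fold: Gpr182, a scavenger of chemokines, at 1.57-fold, coagulation factor gene F8 at 1.42-fold and the transcription factor gene Maf at 1.24-fold. Bmp2, a ligand that raises hepcidin, had 480 and 384 counts and was not called. Cd209b, with 20 and 16 counts, was under the minimum. The 6 genes past 2-fold had between 9 and 191 counts in replicate 1, and the other 4 that passed the minimum had between 449 and 1296.

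Markers of other liver cells moved in the same direction. All 12 hepatocyte markers were past 2-fold higher in replicate 2, between 6.11 and 6.63 on the log2 scale, with a median of 6.28. Alb, serum albumin, had 11821 and 674915 counts and was 80.2-fold (78.8 to 81.7) higher. All 5 markers of Kupffer cells, the macrophages of liver sinusoids, were past 2-fold higher with a median of 4.41, and summed to 0.740 and 19.2 TPM. Of these, 4, Clec4f among them, passed the count minimum through replicate 2 alone. Their differences are therefore a description. Clec4f, which is specific to Kupffer cells, had 5 and 527 counts and was 148-fold (63.1 to 458) higher. Stab2 differed by 4.84, beside medians of 6.28 for the hepatocyte and 4.41 for the Kupffer markers. Clec4g differed by 7.30, with a counting interval from 5.75 to 10.67 that rests on 2 counts in replicate 1. No hepatocyte or Kupffer marker was at 0 in replicate 1, but the Kupffer marker Vsig4, named after its values were seen, had 1 count there. Of all 8 macrophage markers, with no count minimum, 5 were past 2-fold higher, with a median of 1.09. Over all genes that passed the minimum, 8.38% were past 2-fold higher. The part of liver cells in the Stab2 and Clec4g differences was not tested.

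**Figure D3:**
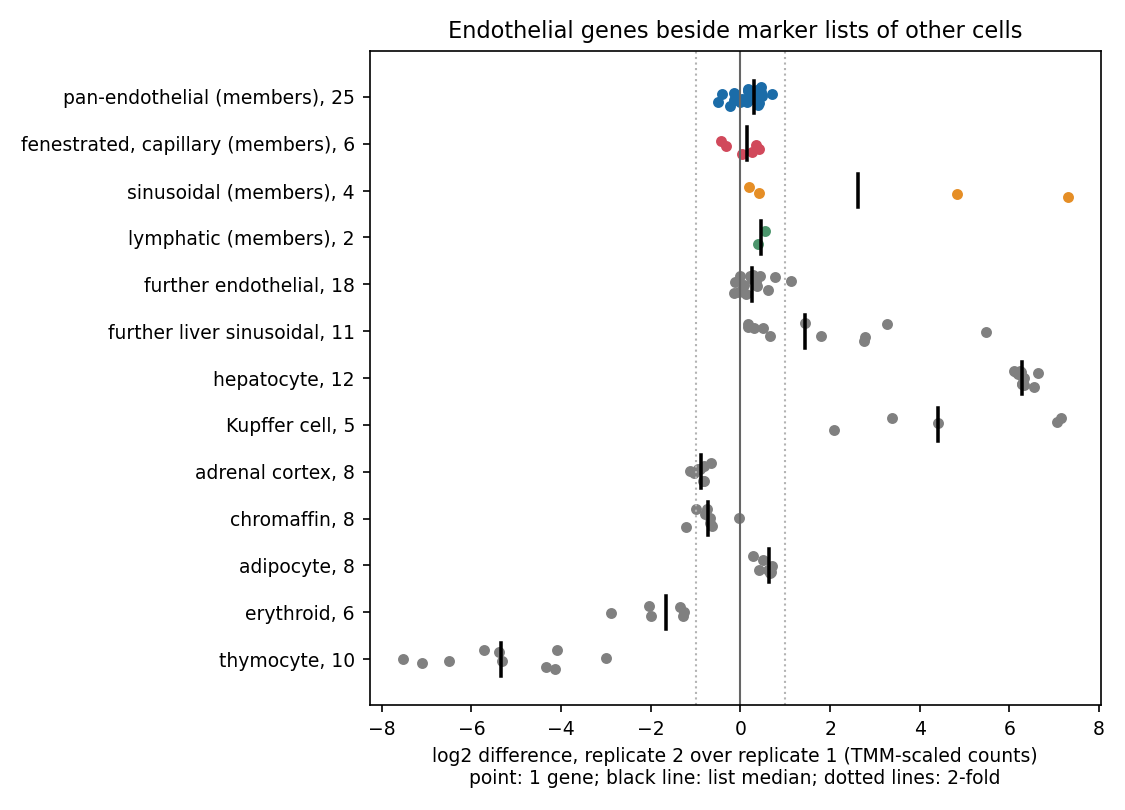
Difference between the libraries (log2 of replicate 2 over replicate 1, TMM-scaled counts) for the endothelial genes by group and for marker lists of other cells, with the number of genes measured after each name and no count minimum. Each point is a gene and each black line a list median: 0.31 for pan-endothelial, 0.15 for fenestrated and capillary, 2.63 for sinusoidal, 6.28 for hepatocyte and -0.87 for cortex genes.

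Because Clec4g and Stab2 differed most, the sequence before their start sites is shown from RefSeq (GRCm38.p6, the C57BL/6J reference; the mice carry a CAST/EiJ copy as well). Tal1, the lowest by difference, and Egfl7, the pan-endothelial gene of the highest level, are shown by the same rule. Stab1 was added after its values were seen, as the paralogue that did not move with Stab2. Each runs 5′ to 3′ on the gene's strand and ends just before the first exon of an annotated transcript. The Egfl7 sequence lies inside the annotated gene, as the entry nearest the start of Egfl7-202. That transcript took 23.7% of the gene's TPM in the first transcript table and 0 in the second. Capitals mark matches, on either strand, to 6 short motifs. The core of the ETS factor motif was searched as AGGAAG and, with another first base, as CGGAAG. That of SOX factors was searched as AACAAT, and that of Kruppel-like factors as CCACCC. The GATA factor motif was searched as AGATAA, and the motif of forkhead factors as GTAAACA. The regions are chr8:3720652-3720901 (minus strand), chr10:87008026-87008192 (minus strand), chr14:31168642-31168891 (minus strand), chr4:115056176-115056425 (plus strand) and chr2:26583615-26583863 (plus strand).
Clec4g: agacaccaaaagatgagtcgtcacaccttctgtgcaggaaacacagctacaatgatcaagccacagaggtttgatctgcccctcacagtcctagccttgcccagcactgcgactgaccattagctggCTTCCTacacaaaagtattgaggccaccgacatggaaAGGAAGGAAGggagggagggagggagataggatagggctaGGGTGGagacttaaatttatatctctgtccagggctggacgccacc
Stab2: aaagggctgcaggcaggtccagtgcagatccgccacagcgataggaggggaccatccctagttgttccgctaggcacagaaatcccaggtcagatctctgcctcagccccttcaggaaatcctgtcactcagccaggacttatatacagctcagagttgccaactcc
Stab1: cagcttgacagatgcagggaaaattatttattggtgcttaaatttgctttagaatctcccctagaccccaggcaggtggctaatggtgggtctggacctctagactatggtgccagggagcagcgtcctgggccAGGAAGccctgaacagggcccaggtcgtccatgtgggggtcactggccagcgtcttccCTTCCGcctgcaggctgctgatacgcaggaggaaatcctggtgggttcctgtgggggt
Tal1: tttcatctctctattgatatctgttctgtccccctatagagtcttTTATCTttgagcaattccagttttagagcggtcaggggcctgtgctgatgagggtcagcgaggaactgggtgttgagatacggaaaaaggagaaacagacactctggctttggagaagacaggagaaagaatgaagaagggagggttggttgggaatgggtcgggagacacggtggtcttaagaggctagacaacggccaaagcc
Egfl7: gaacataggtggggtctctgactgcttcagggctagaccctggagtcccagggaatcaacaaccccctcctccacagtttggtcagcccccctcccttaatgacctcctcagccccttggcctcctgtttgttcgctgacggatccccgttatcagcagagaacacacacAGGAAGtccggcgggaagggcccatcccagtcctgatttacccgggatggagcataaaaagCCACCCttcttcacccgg

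The Clec4g sequence held 3 AGGAAG matches, of which the 2 adjacent ones overlap, and 1 CCACCC match on the other strand. The 167 bases of Stab2 held none of the motifs, those of Stab1 held 1 AGGAAG and 1 CGGAAG, that of Tal1 held 1 AGATAA, and that of Egfl7 held 1 AGGAAG and 1 CCACCC. The table had an entry for 19 of the 37 genes, with 25 windows of 250 bases. AGGAAG was in 10 of the 25 (40.0%) and in 29.5% of all 32851 windows. The Stab2 window counted among the 10 reaches past the bases printed. CGGAAG was in 2 (8.0%, against 13.6%) and AACAAT in 4 (16.0%, against 9.4%).

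CCACCC was in 5 (20%, against 28.1%), AGATAA in 2 (8.0%, against 10%) and GTAAACA in 0 (3.2% of all windows). A match is a string of letters and not a site of binding. With 25 windows, some from the same gene, the shares are a description only.

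Of the lymphatic genes, Prox1, the master factor of lymphatic identity (chr1:190118035-190170714, minus strand), had 2573 and 2398 counts and 11.3 and 10.8 TPM. It was higher in replicate 2 by 0.39. Mmrn1, a multimerin of lymphatic endothelium and platelets, had 59 and 61 counts and 0.390 and 0.440 TPM and was not called. Prox1 stood at 28.9 and 24.6 times the level of Mmrn1 and at 2.96 and 3.32 times that of Lyve1. Hepatocytes and muscle cells express Prox1 as well. Acta1, skeletal muscle actin, was 34.2-fold higher in replicate 2, beside 80.2-fold for Alb. The part of these cells in the level of Prox1 was not tested.

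Over all genes tested, 28.5% were called higher and 8.38% were past 2-fold higher. Of 7 further lymphatic genes, 5 were called higher and 2 were not called, with a median of 0.57. The 2 past 2-fold, named after their values were seen, were Reln, an extracellular matrix glycoprotein, at 335 and 2630 counts, and the chemokine gene Ccl21a, at 51 and 87 counts. Reln is also made by stellate cells of the liver. The part of those cells was not tested.

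Genes outside the 37 that mark endothelium in general are given beside the pan-endothelial members, with no test between the lists. Of 18 on a further list, 11 were higher, none was lower and 7 were not called, with a median of 0.26 and summed levels of 243 and 210.3 TPM. The exception past 2-fold, named after its values were seen, was Vwf, the clotting factor carrier stored in endothelial cells and platelets, at 538 and 837 counts and 2.19-fold (1.96 to 2.44) higher. Pericytes, the support cells of capillaries, were read as well: all 8 pericyte and smooth muscle markers were higher, with a median of 0.40. Pdgfrb, the pericyte growth factor receptor, was lowest at 0.11. Myh11, smooth muscle myosin, named after its values were seen, was past 2-fold at 1.09. Over all genes tested, 28.5% were called higher. The scaling shifts of -0.28 (spike-in) and -0.34 (total counts) are larger than the difference of Pdgfrb and than the further endothelial median.

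The endothelial genes were also set side by side in both of the deposited quantifications. The second transcript table, summed to genes, gave the median gene 0.42 and 0.46 (log2 of TPM + 1) more than the gene table, and member values are given relative to that. Mmrn1, under 1 TPM, was too low to be compared. None of the other members was past 2-fold apart on the mean of both libraries, beside 0.782% of 13803 genes past 2-fold higher and 4.10% lower. Cdh5 was highest, at 1.22 in replicate 1 and 0.53 in replicate 2, followed by Ramp2 at 1.05 and 0.67. Car4 stood at 0.80 and 0.61. Stab1 was lowest, at -0.61 and -0.76, and Calcrl and Aplnr also lay below. In the second table Cdh5, at 121 TPM in replicate 1, took the first place from Egfl7 at 112 TPM, while in replicate 2 Egfl7 stayed ahead at 88.7 against 75.2 TPM.

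**Figure D4:**
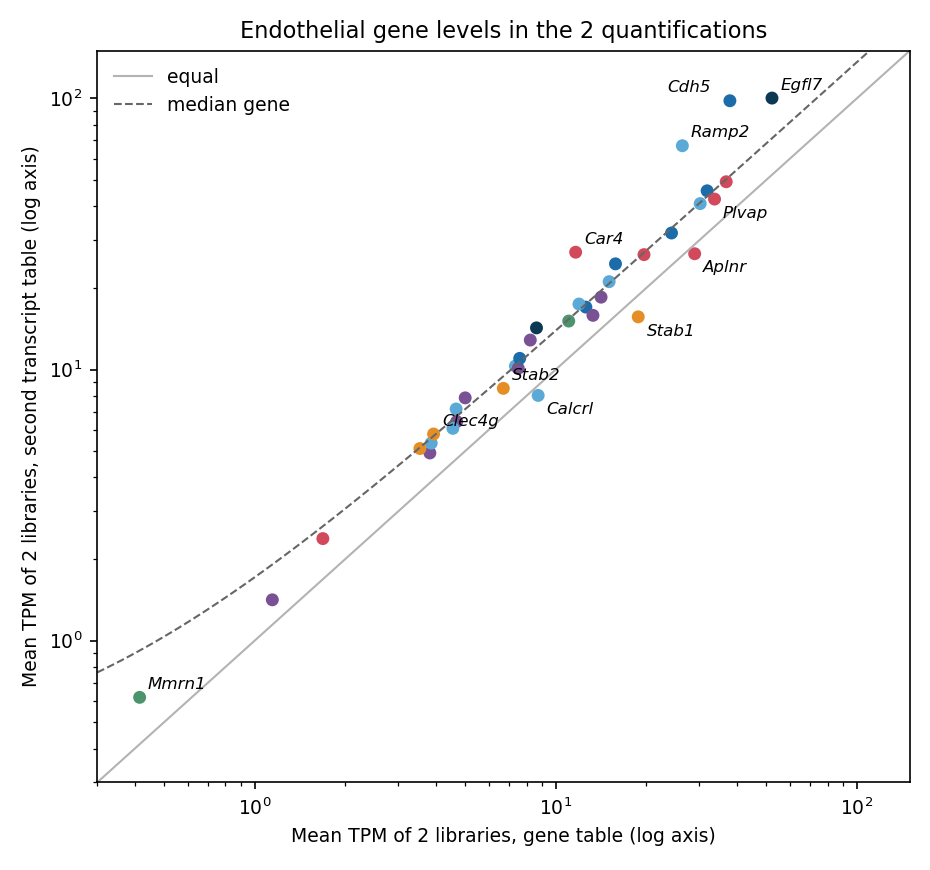
Mean TPM of both libraries in the gene table (horizontal, log axis) and in the second transcript table (vertical, log axis) for the 37 genes, coloured by role. The solid line marks equal values and the dashed line the median gene. Most genes lie near the dashed line, with Cdh5, Ramp2, Car4 and Egfl7 above it and Stab1, Aplnr and Calcrl below.

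The gap for Cdh5 came with a short transcript. The full-length Cdh5-201 (3995 bases) took 94.1% and 96.8% of the gene's TPM in the first transcript table and 38.5% and 66.3% in the second. The 346-base Cdh5-202 took 61.5% and 33.7% in the second. For Aplnr it was the first table that used a short form: the 313-base Aplnr-202 took 28.0% and 39.5% there and none in the second. On the long form alone, Aplnr-201, the level was 20.4 and 17.9 TPM in the first table.

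The 37 genes have 162 annotated transcripts, and 8 genes have a single one. Of the other 29, 19 had the same leading transcript in both tables and 10 had another: Calcrl, Cdh5, Ecscr, Egfl7, Eng, Erg, Mmrn1, Pecam1, Robo4 and Sox17. For 3 genes the leading transcript of the first table was not annotated as coding: Calcrl-203, Ramp2-205 and Sox17-205. Gene-level calls are less exposed to this than isoform levels. Stab2-201, the full-length form, led in both tables and both libraries, with 33.9% and 49.3% in the first table and 41.4% and 56.4% in the second.

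Shared sequence touched few of the genes. Of the 37, 4 overlap an exon of another gene with at least 20 counts in a library. Ramp2 shares 1103 of its 3301 exon bases with Vps25 on the same strand, which had 1334 and 980 counts, so its counts are the least certain. Egfl7 shares 64 bases with Agpat2, Eng 61 with Fpgs and Stab1 112 with Nt5dc2, each on opposite strands. Whether strand was used in counting is not given in the sources used here. The posterior SD of the count that the deposited table gives was 0 for 35 genes, 13.1 and 6.76 counts for Ramp2 and 0.600 and 0.450 for Egfl7.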

How the data were processed

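Total RNA of 2 adrenal gland libraries was sequenced after ribosomal RNA reduction with a directional kit, per the labels' protocols. Text deposited with each sample names mm10 and GENCODE M21; tools and versions: not given in the sources used here. The authors' expected counts and TPM stand in a gene table and in a first transcript table, per the file headers. The first transcript table also has each transcript's percent of its gene's TPM, computed by the authors. Per the file headers, the second transcript table holds the authors' estimated counts and TPM. The posterior SD of each count is a further deposited column.

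Here expected counts were rounded, genes of the same symbol summed, and libraries scaled by TMM (edgeR 4.0.16). Alternatives were DESeq2 size factors (1.42.0), spike-in and total-count scaling, the second table, a prior count of 2 in place of 0.5, log2(TPM + 0.1), and mean count minimums of none or 100 in place of 20. Differences, exact binomial intervals (Clopper-Pearson, 95%) and tests were computed over all genes but the mitochondrial ones, with scipy 1.17.1; the test was tested on simulated data. Totals were 37586172 and 33844950 expected counts, and intervals cover counting error only. The members, gene lists, motifs and named genes (all 37 members, the further liver sinusoidal list, and defining markers of other cells; for sequences, the extremes by difference and the highest pan-endothelial gene) were chosen with earlier results of these data known. Promoter sequences are RefSeq's (GRCm38.p6) and matched by symbol.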

Additional observations from a re-analysis of the deposited data

How the results depend on the processing

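Stab2 and Clec4g were past 2-fold higher, and no member past 2-fold lower, under all 7 alternatives tried for that count. The sinusoidal median of 2.63 was 2.35 with spike-in and 2.29 with total-count scaling. The pan-endothelial median of 0.31 was 0.03 and -0.03, and the median of the fenestrated and capillary genes, 0.15, was -0.13 and -0.19. A shift of all genes by the scaling (-0.28 and -0.34) enters each. Under spike-in scaling the sign turned for Pecam1 (-0.24), Egfl7 (-0.04), Esam (-0.11), Ehd3 (-0.24), Eng (-0.12), Mmrn2 (-0.04), Aplnr (-0.02) and, not called in either setting, Sox18 (-0.13) and Lyve1 (-0.08). Under total counts it turned for Pecam1 (-0.31), Egfl7 (-0.10), Esam (-0.17), Ehd3 (-0.30), Eng (-0.18), Sox18 (-0.19), Klf2 (-0.03), Mmrn2 (-0.10), Ramp2 (-0.03), Aplnr (-0.08) and, uncalled in both, Lyve1 (-0.15). On log2(TPM + 0.1) it turned for Cdh5 (-0.03), Egfl7 (-0.30), Esam (-0.20), Eng (-0.35), Sox7 (-0.01), Klf2 (-0.11), Nos3 (-0.03), Icam2 (-0.37), Mmrn2 (-0.42), Ramp2 (-0.17), Ptprb (-0.04), Prox1 (-0.06) and Car4 (-0.10), and for the uncalled Pecam1 (-0.35), Ehd3 (-0.38), Sox18 (-0.27) and Lyve1 (-0.22); TPM is relative to all entries, and the cause of each turn was not tested. Members lost their call without turning sign in 9 cases under spike-in scaling, in 13 under total counts and in 1 (Robo4, -0.10) with the second table, where Erg turned to 0.07 uncalled. Lower calls were gained by Erg (-0.29 and -0.35), Klf4 (-0.41 and -0.48) and Esm1 (-0.71 and -0.77) under spike-in and total-count scaling. Of the genes whose sign turned, Pecam1, Ehd3 and Eng were called lower under both of these scalings. Esam and Sox18 were called lower under total counts only. With the second table calls were gained by Ehd3 (0.11), Sox18 (0.29), Mmrn1 (0.77) and Esm1 (-0.47). The median level of the 37 genes, 11.1 TPM, was 11.2 to 11.3 TPM with either replicate left out, 15.1 TPM in the second table and 38.8 TPM when rescaled to protein-coding genes. At least 10 TPM in both libraries was reached by 19 of the 33 genes that reached 1 TPM. Differences have no value with a replicate left out. No paired analysis was possible because there is 1 group. With 2 libraries, depth sets counting error only: the interval for Clec4g rests on 2 counts in replicate 1. Counts of the liver sinusoidal, macrophage, artery and vein, and barrier lists with no count minimum were added after seeing the data.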

Other observations

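Genes of endothelial subtypes that the report does not use were read in the same way. Of 11 genes of arteries and veins, none was past 2-fold in either direction, with a median of 0.50 and no count minimum, and with summed levels of 44.1 and 41.8 TPM. Over all genes that passed the minimum, 8.38% were past 2-fold higher and 2.55% lower. Of 10 genes of caveolae and capillary transport, 9 were called higher and 1 lower, beside 28.5% and 24.6% of all genes tested. Their median was 0.45, and their summed levels of 542 and 547 TPM were close to the summed level of the 37 endothelial genes. The exception, named after its values were seen, was Cavin3, a coat protein of caveolae, at 1185 and 687 counts and -0.30. Cd36 alone, named after its values were seen, gave 242 and 232 TPM of the sums. Adipocyte markers summed to 2629 and 2873 TPM, and the part of adipocytes in the caveolae and transport genes was not tested. Meox2 and Tcf15, transcription factors of muscle and heart capillaries that were also named after their values were seen, differed by 0.85 and 0.79.

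Genes of barrier endothelium, which seals brain vessels, were near the lower limit. The 4 genes summed to 1.49 and 1.76 TPM and none reached 1 TPM in both libraries. Foxq1, named after its values were seen, was 50.8-fold (23.0 to 140.0) higher in replicate 2 on 6 and 217 counts. It passed the count minimum through replicate 2 alone. Of the others, Mfsd2a, a lipid transporter, had 30 and 13 counts and was not called, while Slc38a5 and Slco1c1, with 30 and 6 and with 9 and 5 counts, were under the minimum.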
